A study of Mus musculus with 2 samples.

Results

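The plasminogen activation system was followed here through 4 genes matched by symbol among the 32285 genes of the matrices: Plau, Plat, Plaur and Serpine2. All 4 were found once each. They were measured by single-cell RNA-seq in mononuclear cells of mouse limb muscle, with 1 library from aged C57BL/6 mice given Maraviroc (MVC), a small-molecule drug, and 1 from mice given the vehicle DMSO. In both groups red blood cells were lysed and dead cells were sorted away before loading. How many mice were pooled in each library is not given in the sources used here. With 1 library for each treatment no test across mice was possible, so every difference below describes these 2 libraries, and every 95% interval covers counting error only.

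The system turns the circulating zymogen plasminogen into plasmin, the protease that dissolves fibrin and cleaves other matrix proteins. Urokinase (Plau) and tissue-type plasminogen activator (Plat) are the activators, the urokinase receptor (Plaur) holds urokinase at the cell surface, and protease nexin 1 (Serpine2) is a serpin that inhibits thrombin and both activators. In muscle, urokinase is best known for its part in clearing fibrin and in regeneration after injury. On GRCm38, GENCODE M21 places Plau (ENSMUSG00000021822) on the plus strand of chr14:20836660-20843385 and Plat (ENSMUSG00000031538) on the plus strand of chr8:22757727-22782844. Plaur (ENSMUSG00000046223) lies on the plus strand of chr7:24462484-24475968 and Serpine2 (ENSMUSG00000026249) on the minus strand of chr1:79794197-79861180. No other annotated gene overlapped any of the 4, and between 0.128% (Plat) and 1.11% (Serpine2) of the 31-base words of their transcripts also occurred in another gene.

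UMIs (unique molecular identifiers) count captured RNA molecules. When barcodes with fewer than 500 genes or over 10% mitochondrial UMIs were dropped, 5437 DMSO cells with a median of 5802 UMIs and 5454 MVC cells with a median of 5195 UMIs remained, and 8 of the kept barcodes occurred in both libraries. Clustering gave 27 clusters and 15 classes named by markers, 11 of them with at least 50 cells in each library. The largest were endothelial (EC-like, 2295 and 2118 cells in DMSO and MVC), fibro-adipogenic progenitor (FAP-like, 1210 and 1439), tenocyte-like (466 and 532) and pericyte-like cells (296 and 286). Satellite cells (MuSC-like) numbered 143 and 257. A level is given as the UMIs of a gene per 1000000 UMIs of the class and library (CPM), which allows a gene to be compared between classes and libraries but not with another gene. A difference was called when a gene had at least 50 UMIs over both libraries and a ratio of CPM of at least 1.5-fold in either direction.

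The members differed in the classes that held them. Among the 11 classes, and with both libraries summed, Plau and Serpine2 were highest in FAP-like cells, Plaur in EC-like cells and Plat in lymphatic EC-like cells. In MVC alone Serpine2 was higher in SMC/pericyte-like cells, at 429 CPM, than in FAP-like cells, at 393 CPM, with 43.2% of the former UMIs in 3 cells. The place of lymphatic EC-like cells for Plat also rested on 3 cells of each library. FAP-like cells held 84.3% of the Plau UMIs of the DMSO library and 78.8% of those of the MVC library, and 81.1% and 80.5% of the Serpine2 UMIs. EC-like cells held 76.4% and 70.5% of the Plaur UMIs. Plat was spread more widely, with 57.3% and 55.6% in FAP-like, 15.1% and 14.4% in EC-like and 11.9% and 14.4% in tenocyte-like cells.

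**Figure D1:**
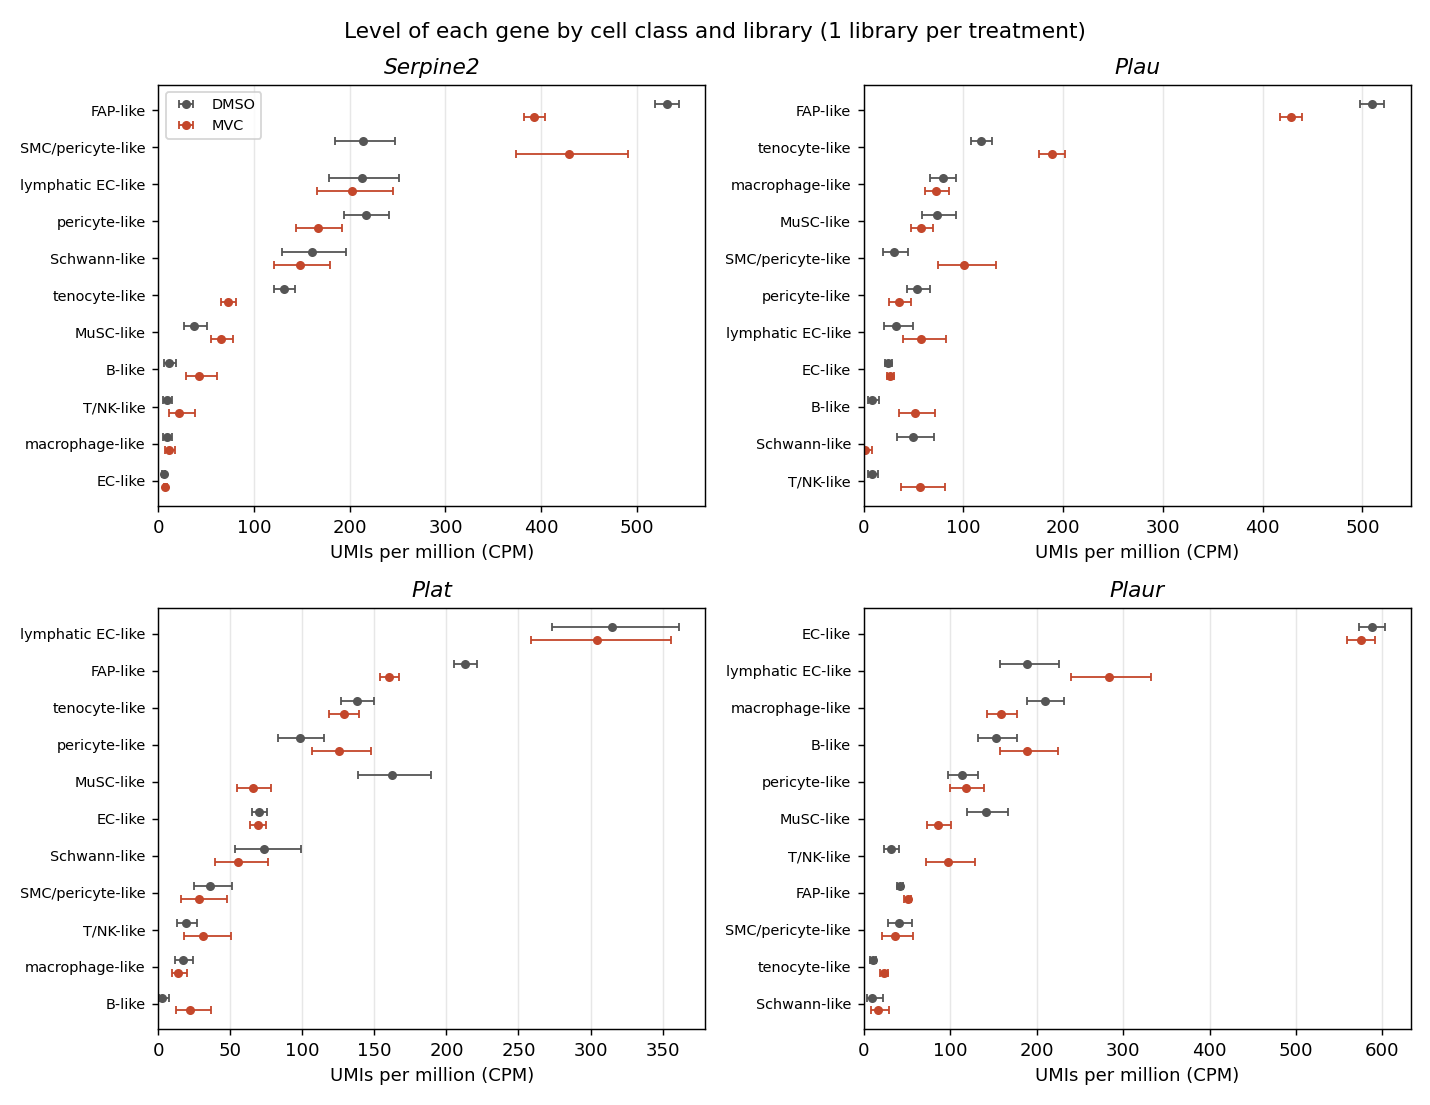
Level of each gene in the 11 classes with at least 50 cells in each library. The horizontal axis is CPM on a linear scale from 0, points are the DMSO (grey) and MVC (red) libraries, and bars are exact Poisson 95% intervals that cover counting error only. Classes are ordered by the level over both libraries: FAP-like cells lead for Serpine2 and Plau, lymphatic EC-like cells for Plat and EC-like cells for Plaur. Without the 3 cells with most Plat UMIs in each library, FAP-like cells stood above lymphatic EC-like cells for Plat.

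Over all kept cells, 0 of the 4 members passed 1.5-fold, where 13.2% of the 16805 genes measured did. Plau stood at 204 CPM in DMSO and 209 CPM in MVC, a ratio of 1.02 (95% interval 0.991 to 1.06). Plat stood at 125 and 111 CPM (ratio 0.886, 0.850 to 0.925). The Plaur levels were 207 and 189 CPM (0.910, 0.881 to 0.940), and those of Serpine2 were 221 and 187 CPM (0.849, 0.822 to 0.877). In such sums, fewer cells of a class and less RNA per cell cannot be told apart, so the classes are described in turn.

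Urokinase transcripts lay mainly in FAP-like cells of both libraries. Plau reached 510 CPM (498 to 522) in DMSO and 428 CPM (417 to 439) in MVC FAP-like cells, from 6653 and 5838 UMIs, a ratio of 0.840 (0.811 to 0.870). With each cell thinned to 2000 UMIs, 47.7% of the DMSO and 43.5% of the MVC FAP-like cells had a Plau UMI, a difference of -4.26 percentage points (-8.17 to -0.335). Without thinning the shares were 76.0% and 68.5%. The median gene of FAP-like cells had a log2 ratio of 0.13, over 12783 genes, so the Plau log2 ratio of -0.25 became -0.38 relative to it. In FAP-like cells 0 of the 4 members passed 1.5-fold, beside 14.7% of all genes measured there.

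The FAP-like clusters did not share this direction for Plau, and the libraries held them in different numbers. The cluster led by Ifi205 and Ptx3 had 428 DMSO and 376 MVC cells, that led by Cxcl14 and Smoc2 483 and 725, that led by Sdk1 and Dmkn 219 and 230, and that led by Pi16 and Tmem100 80 and 108. The Ifi205 and Ptx3 cluster, named for genes of the interferon-inducible and innate immune responses, had the highest Plau level among them, 695 CPM (671 to 720) in DMSO and 766 CPM (736 to 796) in MVC. Its ratio was 1.10 (1.04 to 1.16), and its log2 ratio of 0.14 stands beside a median of 0.07 over the genes of that cluster. Lower in MVC was the cluster led by Cxcl14 and Smoc2, with 427 and 328 CPM (0.768, 0.722 to 0.818). Cells of the cluster led by Sdk1 and Dmkn had 465 and 351 CPM (0.755, 0.696 to 0.819). The lowest Plau level of the 4 was that of the cluster led by Pi16, a marker of adventitial progenitors, and Tmem100, 174 and 169 CPM (0.974, 0.781 to 1.22). The highest and lowest of these clusters differed 3.999-fold in DMSO and 4.52-fold in MVC, more than the libraries differed in any of them.

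Tenocyte-like cells were second for Plau, and there the MVC library was higher. Plau had 118 CPM (108 to 129) in DMSO and 189 CPM (176 to 202) in MVC, a ratio of 1.60 (1.43 to 1.80), and the log2 ratio of 0.68 was 0.86 without the 3 cells with most Plau UMIs in each library. The thinned shares of the class were 9.27% and 12.7%, a difference of 3.43 points (-0.598 to 7.44) with an interval that includes 0. The clusters of this class went apart. In the cluster led by Angptl7 and Wif1, which also carried the tendon matrix genes Fmod, Kera and Comp among its leading genes, Plau had 213 and 391 CPM (ratio 1.83, 1.61 to 2.09). The thinned share of its cells with a UMI was 13.0% in DMSO and 25.0% in MVC, a difference of 11.98 points (4.28 to 19.5). In the cluster led by Col22a1 and Thbs4, genes of the muscle-tendon junction, the MVC library was lower, with 41.1 and 21.8 CPM (0.531, 0.369 to 0.756). In tenocyte-like cells, 2 members passed 1.5-fold higher and 1 lower in MVC, where 9.20% and 5.35% of the 9687 genes measured did.

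Elsewhere Plau was lower. Macrophage-like cells had 79.2 and 72.8 CPM (0.919, 0.728 to 1.16) and MuSC-like cells 73.7 and 57.5 CPM (0.780, 0.575 to 1.06), intervals that include 1. EC-like cells had 24.8 and 26.9 CPM (1.08, 0.903 to 1.30). Lymphatic EC-like cells had 32.6 and 57.8 CPM from 21 and 30 UMIs (1.77, 0.982 to 3.26). There 3 cells held 61.9% and 43.3% of the UMIs. The thinned shares went the other way, at 6.67% in DMSO and 5.19% in MVC (-1.47 points, -10.1 to 6.85). In several small classes the level rested on a handful of cells. Pericyte-like cells had 53.9 and 35.2 CPM (0.653, 0.440 to 0.956), but the log2 ratio of -0.62 turned to 0.08 without the 3 cells with most Plau UMIs and to 0.29 without called doublets. In the cluster named SMC/pericyte-like, 30.1 and 101 CPM were measured, with 73.1% and 84.0% of the UMIs in 3 cells of each library. Schwann-like cells had 29 UMIs in DMSO, 93.1% of them in 3 cells, and 1 UMI in MVC. The 10 and 35 Plau UMIs of B-like cells and the 15 and 29 of T/NK-like cells were also concentrated, with between 53.3% and 100.0% in 3 cells.

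With all cells counted, the tissue-type activator Plat was highest in lymphatic EC-like cells, at 315 CPM (273 to 362) in DMSO and 304 CPM (259 to 356) in MVC, from 203 and 158 UMIs. The 2 levels gave a ratio of 0.966 (0.780 to 1.20). Both the level and the ratio rested on few cells: 3 cells of 75 held 60.1% of the UMIs in DMSO, and 3 of 79 held 83.5% in MVC, with up to 62 and 107 UMIs in a cell. Without those cells the levels were 138 and 52.9 CPM, below the 202 and 151 CPM of FAP-like cells treated alike, and the log2 ratio moved from -0.05 to -1.38. Before thinning, 36.0% of the DMSO and 16.5% of the MVC cells had a Plat UMI, and after thinning 14.7% and 7.79%, a difference of -6.87 points (-17.4 to 3.44). Both thinned shares were below those of FAP-like cells. In lymphatic EC-like cells 1 of the 4 members, Plau, passed 1.5-fold higher, where 9.43% of genes did. That call came from 21 and 30 UMIs and a ratio whose interval includes 1.

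FAP-like cells held most of the Plat UMIs, at 213 CPM (205 to 221) in DMSO and 160 CPM (154 to 167) in MVC. The ratio was 0.754 (0.712 to 0.797), the log2 ratio of -0.41 became -0.54 relative to the median gene, and the thinned share was 23.4% and 17.6%, a difference of -5.80 points (-8.997 to -2.62). Between clusters Plat followed another order than Plau. The Sdk1 and Dmkn cluster was highest, at 413 and 362 CPM (0.876, 0.807 to 0.951), and the cluster led by Pi16 and Tmem100 followed at 325 and 266 CPM (0.818, 0.691 to 0.967). The Ifi205 and Ptx3 cluster, highest for Plau, had 151 and 94.3 CPM and the lowest ratio, 0.623 (0.543 to 0.713). In the Cxcl14 and Smoc2 cluster Plat had 102 and 90.1 CPM, with an interval (0.782 to 1.004) that reached 1. All 4 clusters were lower in MVC.

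In the blood endothelium, Plat was highest in the arterial cluster. The EC-like cluster led by Cytl1 and Edn1, with the arterial genes Gja5, Bmx and Sema3g among its leading genes, had 190 and 168 CPM (0.888, 0.756 to 1.04). The other large EC-like clusters lay between 34.3 and 56.7 CPM in DMSO and between 39.1 and 54.5 CPM in MVC. EC-like cells as a whole had 70.0 and 69.0 CPM (0.986, 0.882 to 1.10).

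MuSC-like cells gave the lowest Plat ratio among the classes with at least 50 UMIs. Plat had 162 CPM (138 to 189) in DMSO and 65.7 CPM (54.5 to 78.5) in MVC, from 165 and 121 UMIs, a ratio of 0.405 (0.317 to 0.515). The thinned shares of 18.8% and 12.6% differed by -6.29 points (-14.4 to 1.07), an interval that includes 0, and 3 cells held 32.7% and 24.0% of the UMIs. In MuSC-like cells 1 member passed 1.5-fold higher and 2 lower, beside 11.1% and 8.35% of all 6242 genes measured. The list of 38 genes induced by tissue dissociation also differed there: 12 of its 38 measured genes were at least 1.5-fold higher in MVC and 2 lower, with a median log2 ratio of 0.48. Its part in the differences of the members was not tested.

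The remaining Plat levels were 138 and 129 CPM in tenocyte-like cells (0.933, 0.830 to 1.05) and 98.1 and 126 CPM in pericyte-like cells (1.28, 1.01 to 1.61). Schwann-like cells had 73.3 and 55.6 CPM (0.758, 0.477 to 1.20). Neighbouring classes in the order of Plat levels from tenocyte-like cells downwards did not separate beyond their intervals in both libraries. SMC/pericyte-like, T/NK-like, macrophage-like and B-like cells had between 3 and 33 UMIs in a library, and levels between 2.53 and 35.9 CPM.

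The urokinase receptor Plaur was highest in EC-like cells among the 11 classes compared. Neutrophil-like cells, with fewer than 50 cells in MVC and so not compared, had 359 and 601 CPM and thinned shares of 34.4% and 60.6%. EC-like cells had 588 CPM (573 to 602) in DMSO and 575 CPM (559 to 592) in MVC, from 6138 and 4726 UMIs, a ratio of 0.979 (0.942 to 1.02). None of the 4 members passed 1.5-fold in EC-like cells, beside 13.9% of the 11621 genes measured. The share of EC-like cells with a Plaur UMI was 54.7% in DMSO and 49.0% in MVC after thinning, a difference of -5.69 points (-9.03 to -2.33), and 66.2% and 55.0% before it. Thinning left out 322 DMSO and 624 MVC cells of the class, which had medians of 3700 and 3234 UMIs.

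Within the endothelium Plaur was graded, and the libraries held the clusters in different numbers. The cluster led by Cldn5 and Id1, with 735 DMSO and 453 MVC cells, was highest at 883 CPM (848 to 919) and 1036 CPM (983 to 1092), a ratio of 1.17 (1.10 to 1.25). A cluster led by Patl2 and Fut2, with 537 and 528 cells, followed at 727 and 782 CPM (1.08, 1.001 to 1.15). Cells led by the adhesion molecules Selp and Sele, which mark activated venous endothelium, had 427 and 507 CPM (1.19, 1.08 to 1.31). The arterial cluster led by Cytl1 and Edn1 had 364 and 403 CPM (1.11, 0.993 to 1.23). Only the cluster led by Depp1 and Rassf9, among those with over 50 cells in each library, was lower in MVC, at 320 and 249 CPM (0.778, 0.679 to 0.891), and it held 359 DMSO and 601 MVC cells. The class ratio close to 1 is a sum over 4 clusters with a higher level in MVC and 1 with a lower ratio. The arterial cluster was 1 of the 4, with an interval that includes 1. The cluster with the lower ratio had a low level and more MVC cells. The thinned share in the Cldn5 and Id1 cluster was 69.8% and 71.6%, a difference of 1.76 points (-4.41 to 7.65). It differed by -1.56 points (-8.33 to 5.14) in the Patl2 and Fut2 cluster. In the Selp and Sele cluster the difference was -3.05 points (-12.6 to 6.61). The arterial cluster differed by 6.54 points (-1.58 to 14.6) and the Depp1 and Rassf9 cluster by -5.30 points (-12.0 to 1.28). A cluster led by Gpihbp1 and Timp4, of 86 and 41 shallow cells, had 42 and 17 Plaur UMIs and an interval (0.503 to 1.69) too wide to place.

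**Figure D2:**
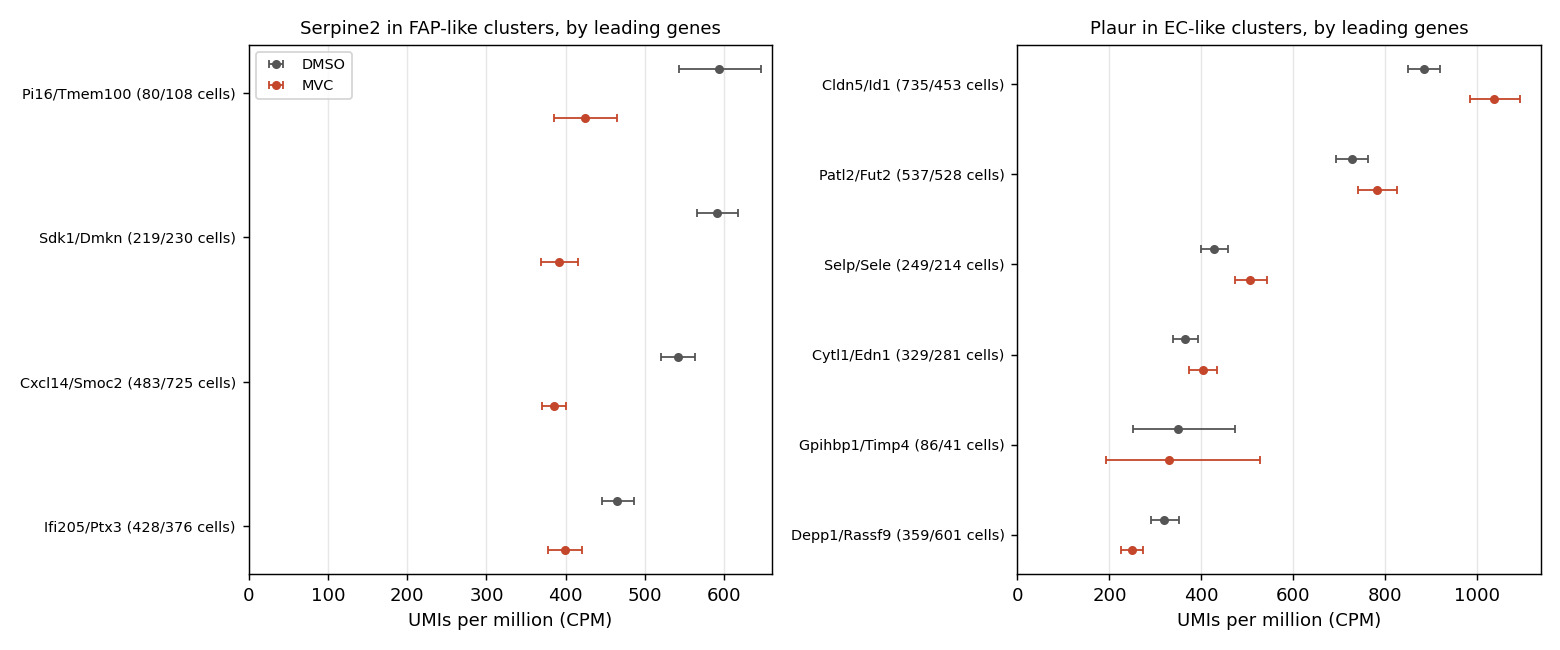
Serpine2 in the 4 FAP-like clusters (left) and Plaur in the 6 EC-like clusters (right), each named by its leading genes with its DMSO and MVC cells in brackets. The horizontal axes are CPM on a linear scale from 0, and bars are exact Poisson 95% intervals for counting error only. Serpine2 is lower in MVC (red) than in DMSO (grey) in all 4 FAP-like clusters, and Plaur is higher in MVC in 4 EC-like clusters and lower in the cluster led by Depp1 and Rassf9.

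Lymphatic EC-like cells had 189 Plaur CPM in DMSO and 283 CPM in MVC (1.495, 1.17 to 1.92), and macrophage-like cells 209 and 159 CPM (0.761, 0.656 to 0.883). The order of these classes differed between the libraries. B-like cells had 153 and 189 CPM (1.23, 0.977 to 1.55) and pericyte-like cells 114 and 118 CPM (1.03, 0.823 to 1.30). In MuSC-like cells Plaur had 142 CPM (119 to 167) in DMSO and 86.3 CPM (73.4 to 101) in MVC, a ratio of 0.610 (0.483 to 0.769), and the thinned shares of 25.4% and 14.6% differed by -10.8 points (-19.5 to -2.60). As for Plat in these cells, 12 of 38 dissociation genes were higher in MVC, and their part was not tested.

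Low Plaur levels differed as well. FAP-like cells had 42.2 CPM (38.8 to 45.9) and 50.7 CPM (47.0 to 54.7), a ratio of 1.20 (1.07 to 1.35) whose log2 value of 0.27 was 0.13 relative to the median gene. Their thinned shares of 5.92% and 7.60% differed by 1.68 points (-0.321 to 3.65), an interval that includes 0. Among their clusters the one led by Cxcl14 and Smoc2 had 18.4 and 32.0 CPM (1.74, 1.34 to 2.27). Tenocyte-like cells had 10.5 and 23.6 CPM from 44 and 104 UMIs (2.25, 1.57 to 3.28), with 51.9% of the MVC UMIs in 3 cells and thinned shares of 1.77% and 1.84%. Shares of this size were also found in Schwann-like cells (2.30% and 0.935%) and are read as background. T/NK-like cells had 31.7 and 97.6 CPM (3.08, 2.06 to 4.60) with thinned shares of 7.77% and 12.3% in 196 and 61 cells, and the log2 ratio of 1.62 was 0.88 without called doublets. Plaur was the 1 member with at least 50 UMIs there and was called, where 15.3% of genes passed 1.5-fold higher. In B-like cells only 1 of the 4 members had at least 50 UMIs and could be called, and 0 passed, beside 20.7% of genes in either direction. In Schwann-like cells 2 of the 4 could be called and 0 passed, beside 19.6%.

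In CPM the inhibitor Serpine2 was lower in MVC in FAP-like cells and in the tenocyte-like class, whose clusters differed in direction. FAP-like cells had 532 CPM (519 to 544) in DMSO and 393 CPM (382 to 404) in MVC, from 6940 and 5357 UMIs, a ratio of 0.739 (0.713 to 0.766). Its log2 ratio was -0.44, and -0.57 relative to the median FAP-like gene. The thinned share of cells with a UMI was 52.0% in DMSO and 46.1% in MVC, a difference of -5.89 points (-9.81 to -1.95), and 84.6% and 80.4% before thinning. The 3 cells with most UMIs held 3.16% and 2.39% of the total, so the level did not rest on few cells.

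All 4 FAP-like clusters were lower in MVC. Serpine2 in the cluster led by Cxcl14 and Smoc2 had 541 and 385 CPM (0.711, 0.672 to 0.753), and that led by Sdk1 and Dmkn 591 and 392 CPM (0.663, 0.615 to 0.714). Cells of the Pi16 and Tmem100 cluster had 593 and 424 CPM (0.715, 0.629 to 0.813). Closest to 1 was the ratio of the Ifi205 and Ptx3 cluster, 0.857 (0.7997 to 0.919), from 465 and 399 CPM. In MVC the 4 clusters lay between 385 and 424 CPM, a narrower range than the 465 to 593 CPM of DMSO. Removing called doublets, or the 3 cells with most UMIs, left the log2 ratio of each cluster negative, between -0.56 and -0.20.

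In tenocyte-like cells Serpine2 had 131 CPM (120 to 143) in DMSO and 73.0 CPM (65.2 to 81.4) in MVC, a ratio of 0.557 (0.484 to 0.640). Of these UMIs, 110 of 550 in DMSO and 98 of 322 in MVC lay in a small cluster led by Pappa2 and Kcnip4. The class log2 ratio of -0.84 was -0.17 when each cell was assigned by its own markers. Thinned shares of the class were 7.73% and 6.15%, a difference of -1.58 points (-4.94 to 1.69) with an interval that includes 0. In the class 3 cells held 38.9% of the DMSO and 29.8% of the MVC UMIs. The low ratio was that of the cluster led by Angptl7 and Wif1, with 228 CPM in DMSO and 56.4 CPM in MVC (0.248, 0.197 to 0.308). There 3 DMSO cells held 55.0% of the UMIs, 1 of them with 155, and the log2 ratio of -2.01 was -1.67 without the 3 highest cells of each library. The thinned shares of 10.9% and 5.29% differed by -5.65 points (-11.3 to -0.270). The Col22a1 and Thbs4 cluster had the opposite order, 22.5 and 52.8 CPM (2.34, 1.68 to 3.32), with 90.2% and 74.4% of the UMIs in 3 cells.

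Serpine2 was also present in the mural and nerve-associated classes. Pericyte-like cells had 217 and 167 CPM (0.769, 0.642 to 0.919), while their thinned shares of 21.6% and 21.4% were close, with a difference of -0.171 points (-7.64 to 7.67). Lymphatic EC-like cells had 213 and 202 CPM (0.951, 0.731 to 1.24) and Schwann-like cells 160 and 148 CPM (0.922, 0.689 to 1.23). The Schwann-like log2 ratio of -0.12 was -1.54 when each cell was assigned by its own markers. In Schwann-like cells 15 of 38 dissociation genes were at least 1.5-fold lower in MVC and 1 higher, with a median log2 ratio of -0.53, and their part in the values of the members was not tested. The SMC/pericyte-like cluster, led by Olfr1033, Gm13889 and Ccl19 and not by contractile genes, went the other way at 214 and 429 CPM (2.01, 1.64 to 2.46). In MVC 3 of its 79 cells held 43.2% of the UMIs, and the ratio fell short of 1.5-fold, at a log2 ratio of 0.49, without the 3 highest cells. In that cluster 2 members, Plau and Serpine2, passed 1.5-fold higher, beside 10.5% of all genes. SMC-like cells, with 65 DMSO and 48 MVC cells and so not compared, had 226 and 171 CPM of Serpine2. Their thinned shares were 40.0% and 21.3%.

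MuSC-like cells had little Serpine2 in either library, 37.4 CPM (26.4 to 51.3) in DMSO and 65.7 CPM (54.5 to 78.5) in MVC, a ratio of 1.76 (1.21 to 2.60). The thinned shares of 5.07% and 8.502% differed by 3.43 points (-2.36 to 8.32). The log2 ratio of 0.81 was 0.39 without called doublets and 0.22 when each cell was assigned by its own markers. Without the 3 highest cells it was 1.57. Blood endothelium was almost without it: EC-like cells had 5.46 and 7.30 CPM, and thinned shares of 0.760% and 1.14% serve as the background for this gene. Macrophage-like cells (8.57 and 11.4 CPM), T/NK-like cells (8.64 and 21.5 CPM) and B-like cells (10.96 and 42.5 CPM) had between 11 and 29 UMIs in a library.

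**Figure D3:**
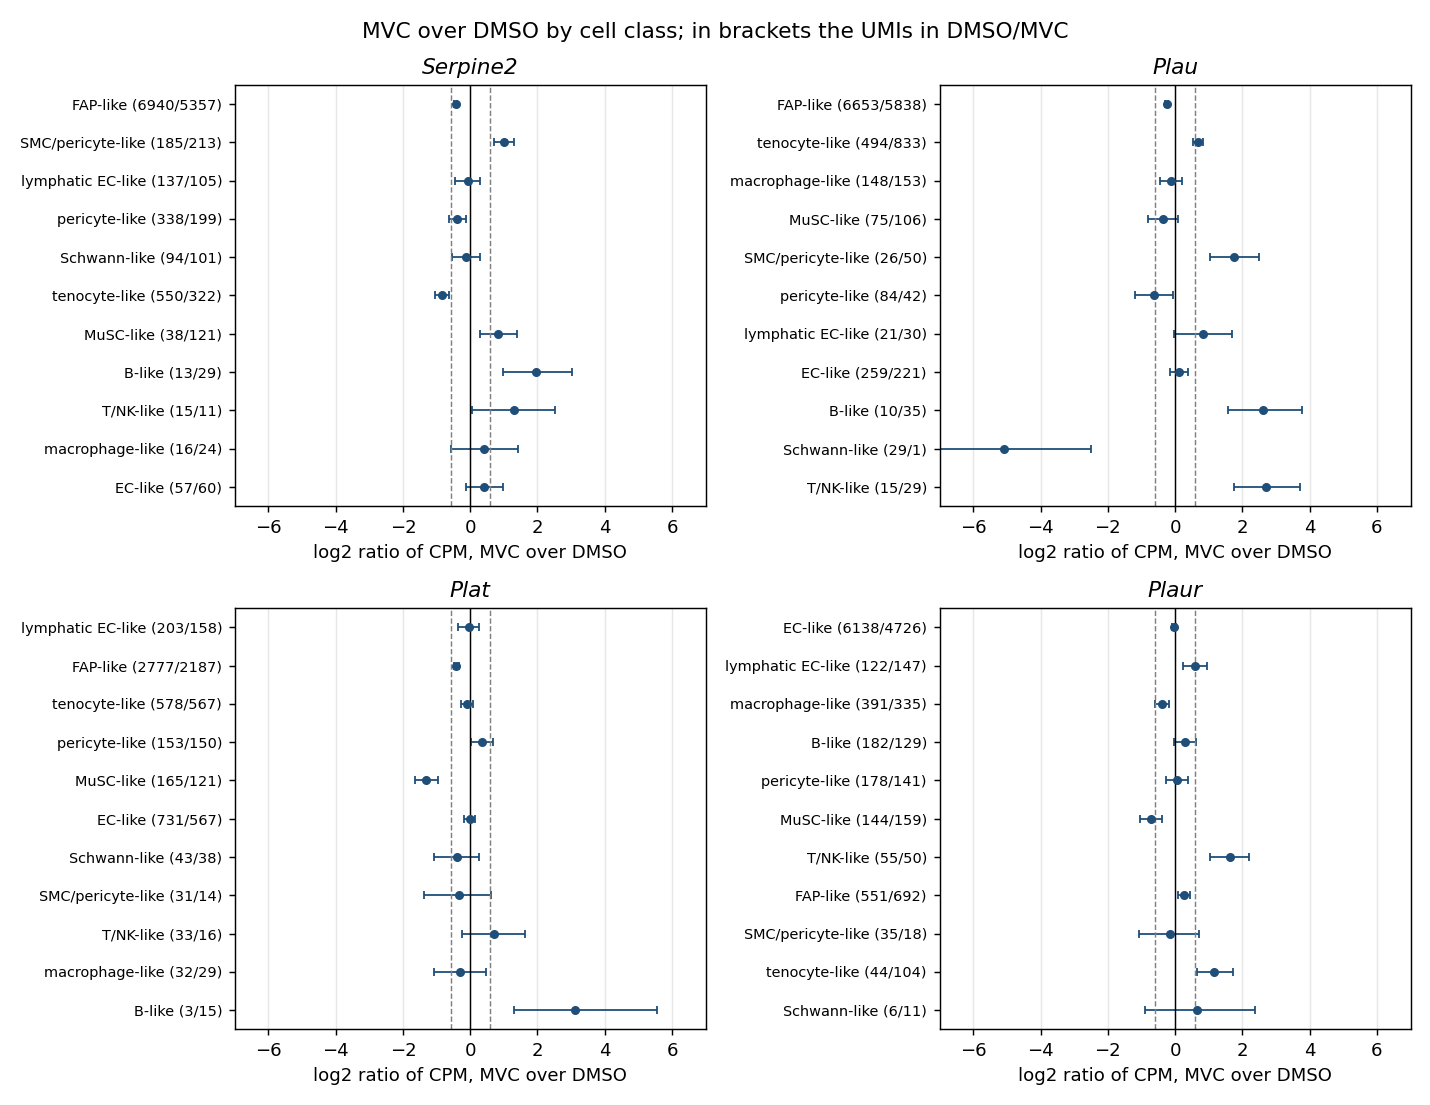
Log2 ratio of CPM, MVC over DMSO, for each gene in the classes with at least 50 cells in each library, in the order of the levels, with the UMIs of DMSO and MVC in brackets. Bars are exact conditional 95% intervals for counting error only, the solid line is no difference, dashed lines are 1.5-fold, and the interval of Plau in Schwann-like cells (29 and 1 UMIs) runs past the left edge. In FAP-like cells the ratios of Serpine2, Plau and Plat lie below 0 within the 1.5-fold lines, and that of Plaur in EC-like cells lies at 0.

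Set side by side in FAP-like cells, the inhibitor Serpine2 (ratio 0.739) and both activators, Plat (0.754) and Plau (0.840), were lower in MVC, and the receptor Plaur (1.20) was higher. None of these ratios passed 1.5-fold. The Plaur log2 ratio of 0.27 was 0.13 relative to the median gene, and the interval of its thinned-share difference includes 0. In tenocyte-like cells the activator Plau (1.60) and the inhibitor Serpine2 (0.557) went opposite ways, and so they did in the cluster led by Angptl7 and Wif1 (1.83 and 0.248). Both directions were reversed in the cluster led by Col22a1 and Thbs4 (0.531 and 2.34). Of the DMSO Serpine2 UMIs of these clusters, 55.0% and 90.2% lay in 3 cells. In MuSC-like cells the receptor (0.610) and Plat (0.405) were lower while Serpine2 (1.76) was higher. For Plat and Serpine2 the interval of the thinned-share difference there spanned both signs. Without called doublets the MuSC-like Serpine2 log2 ratio of 0.81 was 0.39. With each cell assigned by its own markers it was 0.22. Under that assignment the tenocyte-like log2 ratios were 0.92 for Plau and -0.17 for Serpine2.

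Single FAP-like cells often held both Plau and Serpine2, at close to the frequency that their separate shares give. After thinning, 49.7% of the DMSO FAP-like cells with a Serpine2 UMI had a Plau UMI, and 45.6% of those without. In MVC the shares were 42.2% and 44.6%. Plat was found in 24.9% of the DMSO cells with Serpine2 and 21.8% of those without, and in 18.5% and 16.9% in MVC. Plaur was rare in FAP-like cells with Serpine2 (5.28% and 7.58%) and in those without (6.62% and 7.62%).

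Across the 11 classes, profiles of log2(CPM + 10) were compared by Pearson's r as a description. The 11 points share their libraries and depth, and many classes have low counts. Serpine2 had r of 0.60 with Plau and 0.67 with Plat in DMSO and 0.29 and 0.49 in MVC, while its r with Plaur was negative, -0.49 and -0.54. Among 11080 genes with at least 200 UMIs in DMSO, the 3 with the most similar DMSO profile to Serpine2 were Arhgap35 (r 0.94 in DMSO, 0.81 in MVC), Sdc2 (0.94, 0.75) and Rhou (0.94, 0.59). For Plau they were Tlr4 (0.95, 0.28), Has1 (0.94, 0.70) and Slc4a4 (0.93, 0.53). For Plat they were Ptgfrn (0.92, 0.73), Nfia (0.91, 0.75) and Ltbp4 (0.91, 0.84), and for Plaur Cmtm8 (0.88, 0.74), Tut7 (0.88, 0.93) and Klhl2 (0.88, 0.66).

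The other genes of the system came from a list of 52 that includes the 4 members, plasminogen, cofactors and receptors, inhibitors of the activators and of plasmin, the thrombin axis and the activation of hepatocyte growth factor. Over all cells, 42 had at least 50 UMIs, of which 0 were at least 1.5-fold higher and 2 lower in MVC, where 7.63% and 5.56% of all genes were. The 2 were Serpinb2, the gene of plasminogen activator inhibitor 2, with 126 and 21 UMIs (ratio 0.182, 0.109 to 0.290), and the broad protease inhibitor A2m with 76 and 14 UMIs (0.201, 0.105 to 0.358). Whether few cells held the UMIs of these 2 genes was not examined. Plasminogen itself (Plg) was near absent, with 3 and 12 UMIs.

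In FAP-like cells 34 listed genes were measured, 4 of them higher and 3 lower, beside 11.5% and 3.28% of all genes. Hgf, a growth factor that plasminogen-system proteases can activate, had 13.6 and 27.0 CPM (1.98, 1.65 to 2.38). F2rl1, a protease-activated receptor, had 7.05 and 15.2 CPM (2.15, 1.68 to 2.78), and the serine protease Hpn 2.38 and 4.47 CPM from 31 and 61 UMIs. Eno1, which can bind plasminogen at the cell surface, had 12.7 and 19.3 CPM (1.52, 1.24 to 1.85). Of the lower genes, Procr, the endothelial protein C receptor, was far the most abundant, at 803 and 497 CPM (0.619, 0.600 to 0.638). A2m had 74 and 8 UMIs (0.103, 0.0431 to 0.215), and the leukocyte integrin subunit Itgam 70 and 35 UMIs (0.479, 0.309 to 0.728). The median log2 ratio of the measured listed genes was 0.13, the same as that of all genes measured.

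In EC-like cells 35 listed genes were measured, with 3 higher and 2 lower, beside 10.1% and 3.80% of all genes. Tfpi2, an inhibitor of plasmin and other proteases, had 7.37 and 13.8 CPM (1.87, 1.38 to 2.53). The scavenger receptor Lrp1, which takes up protease and inhibitor complexes, had 8.04 and 12.5 CPM (1.56, 1.16 to 2.11), and Met, the receptor of hepatocyte growth factor, 8.62 and 13.4 CPM (1.55, 1.17 to 2.08). St14, a membrane serine protease, was lower at 8.23 and 4.26 CPM (0.517, 0.339 to 0.775), and Itgam had 37 and 17 UMIs with an interval (0.308 to 1.06) that includes 1. All 5 were at low levels in these cells. The median log2 ratio of the listed genes was 0.12, against 0.07 for all genes.

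**Figure D4:**
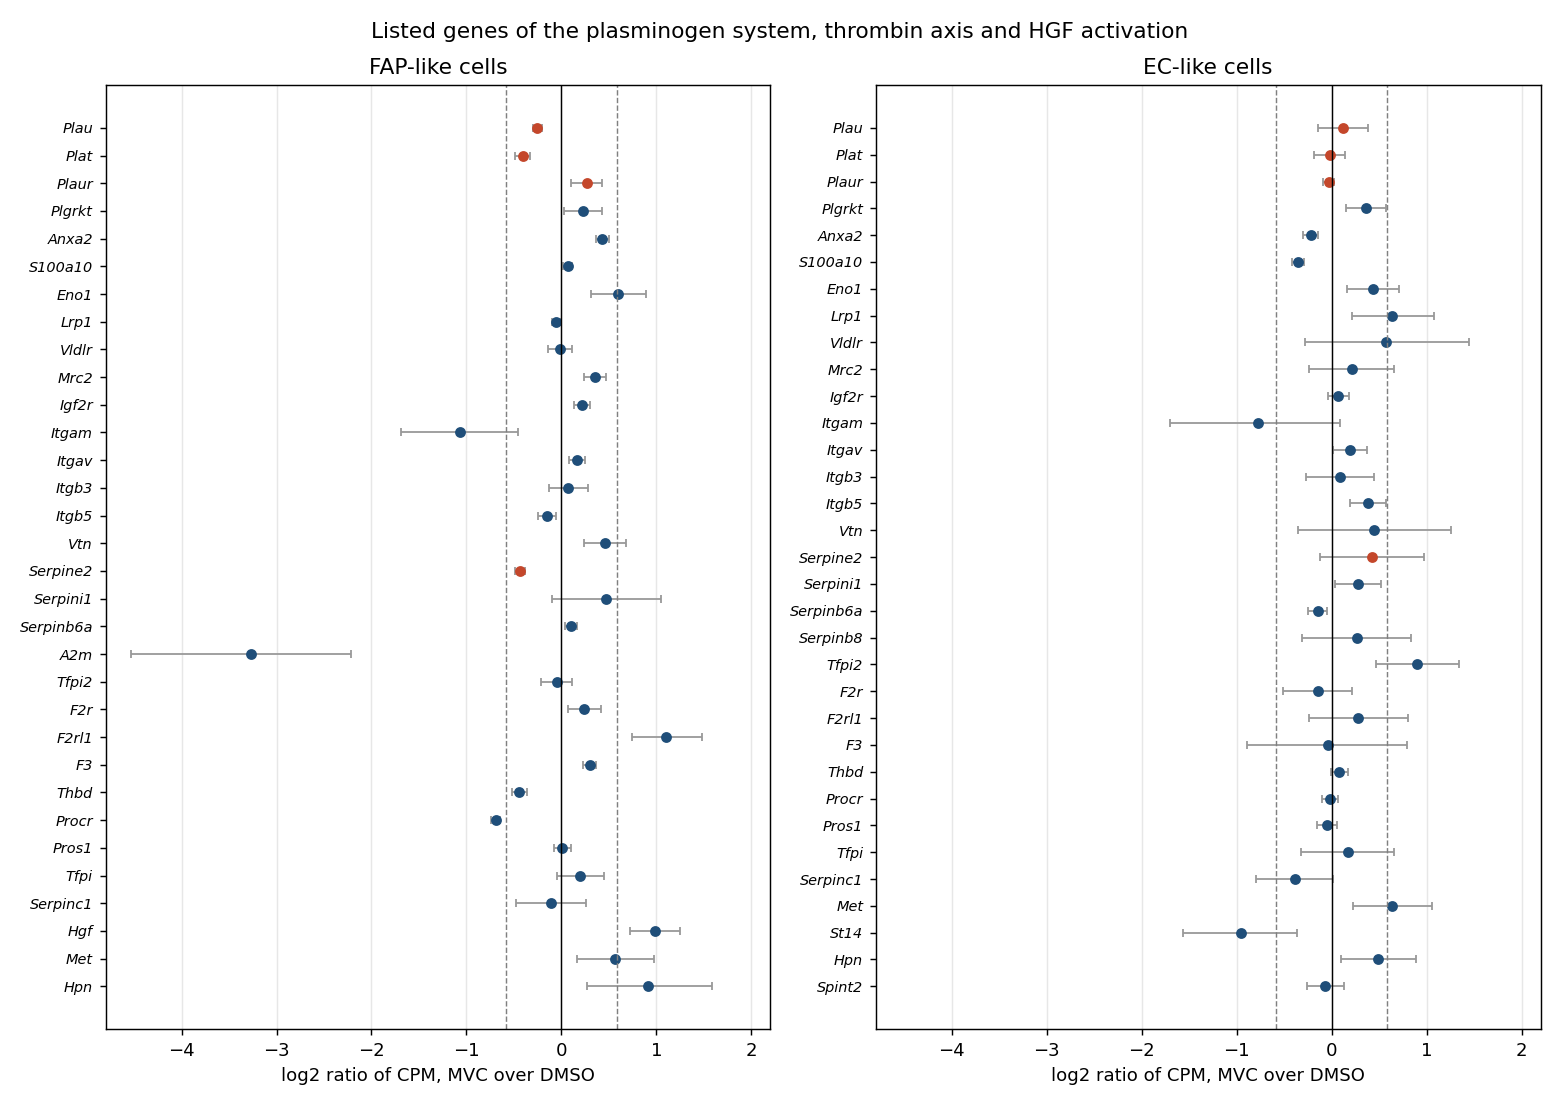
Log2 ratio of CPM, MVC over DMSO, of the listed genes with at least 50 UMIs in FAP-like cells (32 genes shown, left) and EC-like cells (33 genes shown, right), members in red and other genes in blue. Bars are exact conditional 95% intervals for counting error only, and dashed lines are 1.5-fold. In FAP-like cells 4 genes lie past the upper and 3 past the lower line, and the members lie between the lines in both classes.

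The other classes add named inhibitors and receptors. In macrophage-like cells 23 listed genes were measured, 1 higher and 3 lower, beside 9.89% and 6.47% of all genes. Serpinb2, with 120 of its 126 DMSO UMIs in these cells, had 64.2 and 6.66 CPM (0.104, 0.0550 to 0.181), and how its UMIs were spread over cells was not examined. F3, the tissue factor that starts coagulation, had 39 and 16 UMIs (0.365, 0.190 to 0.668) and Thbd, thrombomodulin, 98 and 54 UMIs (0.490, 0.345 to 0.689). In tenocyte-like cells 24 were measured, 5 higher and 1 lower, beside 9.20% and 5.35% of all genes. Besides the members, the higher genes included Eno1 (ratio 2.27, 1.65 to 3.15) and Procr (1.53, 1.10 to 2.16).

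In MuSC-like cells 24 listed genes were measured, 5 higher and 4 lower, beside 11.1% and 8.35% of all genes. Anxa2, which binds plasminogen and Plat at the cell surface, had 144 and 237 CPM (1.65, 1.37 to 2.01), and the scavenger receptor Vldlr 10.8 and 33.1 CPM (3.06, 1.60 to 6.45). Hgf was lower at 42.3 and 20.1 CPM (0.475, 0.298 to 0.755). In lymphatic EC-like cells 20 were measured, 1 higher and 5 lower, beside 9.43% and 11.6% of all genes. The lower genes included the anticoagulants Thbd (0.329, 0.235 to 0.453), Procr (0.575, 0.5001 to 0.661) and Tfpi (0.358, 0.187 to 0.646), with the integrin subunit Itgb3 (0.513, 0.284 to 0.892). In pericyte-like cells 22 were measured, 2 higher and 1 lower. The higher genes included S100a10, the partner of Anxa2 (1.57, 1.29 to 1.93), and the lower was Plau, beside 9.98% higher and 5.78% lower of all genes. The Plau log2 ratio of -0.62 turned to 0.29 without called doublets and to 0.08 without the 3 cells with most Plau UMIs. The dissociation list was lower there, with 9 of 38 genes past 1.5-fold and a median log2 ratio of -0.38, and its part was not tested.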

How the data were processed

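Live mononuclear cells of limb muscle were profiled on the 10x platform by the study, and groups were taken from the treatment in the labels. The deposited values were raw UMI counts for each gene and barcode. Per the file headers, Cell Ranger 7.0.0 was the authors' counting tool. The submitters' processing notes also name Seurat 5.0.1 and mm10. The annotation release and the handling of intronic reads are not given in the sources used here.

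The study's cell filter was applied (at least 500 genes, at most 10% mitochondrial UMIs), which took away 6.45% (DMSO) and 9.81% (MVC) of barcodes and kept 38748234 and 35518029 UMIs. Each cell's counts were brought to a total of 10000 and logged. Clustering used 1991 of 2000 variable genes, without mitochondrial, sex-linked or listed pathway genes, 30 principal components, 20 neighbours per cell and Leiden communities at resolution 1 (scanpy 1.11.5, leidenalg 0.10.2, scipy 1.17.1). The libraries were not integrated, and the classes were rebuilt from markers, so their names need not match the study's. A cluster was called X-like when at least 3 markers were raised by a log2 fold of 1 and found in at least 20% of cells. Where another class also met this rule, the mean log2 fold of the markers had to exceed that class by a margin of 1. Without that margin both names were joined, as in SMC/pericyte-like. Doublets were scored against simulated ones at 0.8% per 1000 cells. They numbered 236 and 238, were kept, and were removed in an alternative. Free RNA was not corrected.

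UMIs were summed per class and library. Levels carry exact Poisson, ratios exact conditional, shares Clopper-Pearson and share differences Newcombe 95% intervals. Shares used cells thinned to 2000 UMIs. With 1 library per group no test was made. Leaving out the 3 cells with most UMIs of a gene, for levels and ratios, was an alternative chosen after seeing the data. It was done for the members only, so concentration in few cells was not examined for the other listed genes. The call rule and intervals were tried on counts simulated from the summed UMIs of FAP-like cells, with counting error only. That simulation had no concentration of UMIs in few cells, so it cannot show how the intervals behave where 3 cells hold most UMIs. The named genes were the members, the listed pathway genes past 1.5-fold with at least 50 UMIs in the classes described, and the 3 genes most like each member. The members, lists and markers were chosen with earlier results of these data known. Some listed genes stay in the counts but are not reported here by name.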

Additional observations from a re-analysis of the deposited data

Results flagged for a closer look

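For each member the ratio of CPM, MVC over DMSO, lay below 1 in at least 1 class and above 1 in at least 1 other, with counting intervals that exclude 1 in both. Each class has 1 library per treatment, so none of these differences between classes was tested. Serpine2 had a ratio of 0.557 in tenocyte-like and 3.88 in B-like cells, the latter from 13 and 29 UMIs. Plau had a ratio of 0.0296 in Schwann-like cells, from 29 and 1 UMIs, in a class where 15 of 38 dissociation genes were at least 1.5-fold lower in MVC, and 6.55 in T/NK-like cells, from 15 and 29 UMIs. Plat had a ratio of 0.405 in MuSC-like and 8.70 in B-like cells, the latter from 3 and 15 UMIs. Plaur had a ratio of 0.610 in MuSC-like and 3.08 in T/NK-like cells. In B-like cells for Serpine2 and Plat, and in Schwann-like and T/NK-like cells for Plau, 3 cells held at least 53.3% of the UMIs of each library. The part of the dissociation genes was not tested.

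Plaur was also found in classes with fewer than 50 cells in a library, which no comparison used. Neutrophil-like cells had 359 CPM in DMSO (64 cells) and 601 CPM in MVC (34 cells), with thinned shares of 34.4% and 60.6%. SMC-like cells had 28.5 CPM and 78.6 CPM (65 and 48 cells), with 57.5% of the MVC UMIs in 3 cells. Perineurial-like cells had 39.0 CPM in MVC, from 15 UMIs in 52 cells, and 0 UMIs in 39 DMSO cells, which allows up to 8.64 CPM at 3 counts.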

How the results depend on the processing

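No paired analysis was possible because each treatment has 1 library. Of 68 alternative values of the main results, 53 stayed within the counting interval or 1.5 times the count, and 15 moved. Under scaling by the median ratio over genes, the log2 ratios in the highest class were -0.57 for Serpine2, -0.38 for Plau and -0.10 for Plaur. As a mean over cells Serpine2 gave -0.35, and with thinned cells Plau gave -0.13 and Plat 0.29, while Plat without its 3 highest cells gave -1.38. Without thinning, the share differed by -19.5 points for Plat and -11.2 for Plaur. The count of listed genes past 1.5-fold in FAP-like cells was 7 and became 4 with at least 200 UMIs and 3 at 2-fold. In EC-like cells it was 5 and became 1 with at least 200 UMIs, 0 at 2-fold, 3 under median-ratio scaling and 3 without doublets. Of 192 values in other classes, 171 stayed, 16 moved by more and 5 of those with an interval excluding 1 changed sign: Serpine2 in T/NK-like cells (-0.73 without the 3 highest cells), Plau in B-like cells (-0.53 without doublets), Plau in pericyte-like cells (0.29 without doublets, 0.077 without the 3 highest cells) and Plat in B-like cells (-1.28 with classes from each cell's own markers). Of the log2 ratios whose interval included 1, 13 more values in other classes and 2 in the highest classes changed sign, among them Plat in T/NK-like cells (-1.97) and Plaur in SMC/pericyte-like cells (1.06), both without the 3 highest cells. With own-marker classes the Serpine2 log2 ratio was nearer 0 in tenocyte-like (-0.17) and MuSC-like cells (0.22) and farther from 0 in Schwann-like cells (-1.54), and that of Plat in macrophage-like cells went from -0.31 to 0.51. The causes of these shifts were not tested. Depth limits the classes with few UMIs of a gene, and no alternative replaces replicate libraries.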

Other observations

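A small tenocyte-like cluster led by Pappa2 and Kcnip4, of 22 DMSO and 28 MVC cells, was not described in full above. Its name rested on 4 raised tenocyte markers, none of them among its leading genes. The mean log2 fold was 0.97 over the tenocyte markers and 0.41 over the FAP markers, of which 2 were raised. Serpine2 had 485 and 334 CPM there (ratio 0.688, 0.519 to 0.912), Plau 163 and 235 CPM (1.44, 0.953 to 2.21) and Plat 335 and 106 CPM (0.315, 0.201 to 0.485). Between 39.8% and 70.3% of these UMIs lay in 3 cells of each library. The tenocyte-like class as a whole had 131 and 73.0 CPM of Serpine2, and FAP-like cells had 532 and 393 CPM.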
